A study of Solanum lycopersicum with 14 samples.

Results

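Tocopherols, the vitamin E compounds of plants, are antioxidants made in plastids by joining a head group derived from tyrosine to a phytyl tail. The 7 genes described here encode enzymes of that route in tomato (Solanum lycopersicum), and they were taken by identifier from the 34725 genes of the deposited tables. They are HPPD (Solyc07g045050), GGDR (Solyc03g115980), VTE1 (Solyc08g068570), VTE2 (Solyc07g017770), VTE3(1) (Solyc09g065730), VTE3(2) (Solyc03g005230) and VTE4 (Solyc08g076360). The tables hold identifiers without names, so the enzyme names are those given with the identifiers in the selection rule. A RefSeq gene table for assembly SLM_r2.1 holds a matching name for 1 of the 7, a gene called TMT at a like place on chromosome 8 for VTE4, and has no entry under the names of the other 6. By their identifiers, GGDR and VTE3(2) lie on chromosome 3, HPPD and VTE2 on chromosome 7, VTE1 and VTE4 on chromosome 8 and VTE3(1) on chromosome 9.

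RNA was sequenced from pericarp, the fleshy fruit wall, of M82, a cultivar with red fruit that served as wild type, and of n3122, a mutant with yellow fruit and M82 as its background. Fruit age is labelled in DPA, which in tomato work stands for days post anthesis. The M82 groups are 35, 47 and 54 DPA old and the n3122 groups 35, 47, 54 and 60 DPA old, and values of a gene are listed in this order of age below. All plants grew in a greenhouse and each of the 7 groups had 2 libraries. The labels name no mutated gene, and they do not tie the 2 libraries to separate plants, so the authors' p-values may reflect technical spread alone. Levels are in FPKM (fragment numbers normalised for transcript length and library depth), a single value for each group, so no SD can stand beside a level and the depth is unknown.

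HPPD, 4-hydroxyphenylpyruvate dioxygenase, makes homogentisate, the head group. GGDR, geranylgeranyl diphosphate reductase, reduces the tail to its phytyl form and serves chlorophyll synthesis as well. VTE2, homogentisate phytyltransferase, joins head and tail in the committed step. VTE3 then methylates the product, VTE1 closes its ring, and VTE4 adds the last methyl group that turns gamma- into alpha-tocopherol. In ripening fruit the plastids turn from chloroplasts into chromoplasts, and phytoene synthase (PSY1) draws on the same geranylgeranyl diphosphate for carotenoids.

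The summed level of 4 ripening genes (PG2A, PSY1, E8 and EXP1) was 248, 13985 and 8811 FPKM in M82, against 188, 335, 563 and 2935 FPKM in n3122. The sum of 3 chloroplast genes (CAB7, CAB8 and CAB3C) was 1152, 122 and 8.93 FPKM in M82 and 1776, 592, 379 and 233 FPKM in n3122. Of 5 listed epidermis and cuticle genes, the 3 with a supported name (CD1, CER6 and CD2) summed to 415, 119.5 and 144 FPKM in M82 and to 623, 167, 161 and 194 FPKM in n3122, and none was at 0 in any group. The differences in this sum between ages lie mainly in CD1, at 289, 0.484 and 0.448 FPKM in M82 and at 447, 41.96, 18.1 and 5.67 FPKM in n3122. CER6 stayed between 89.1 and 143 FPKM over all groups, and CD2 was between 27.8 and 29.3 FPKM in M82 and between 32.9 and 52.4 FPKM in n3122. EIN2, which transduces the ethylene signal, was between 35.0 and 48.9 FPKM in M82 and between 1.95 and 3.75 FPKM in n3122. In bulk pericarp, fewer cells of a type and less RNA per cell cannot be told apart. The most abundant gene took 25.2% of the FPKM total in M82 at 54 DPA and between 6.49% and 15.4% in the other groups.

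All 7 genes were expressed in all 7 groups, between 8.65 and 133 FPKM. VTE3(2) was the most abundant of them in every group, with a median of 94.4 FPKM over the groups. GGDR followed with a median of 51.5 FPKM, then VTE2 with 33.4 and VTE3(1) with 32.4, which cannot be ordered without a spread between libraries. HPPD, VTE4 and VTE1 had medians of 16.4, 14.5 and 10.4 FPKM. The summed level of the 7 was 317, 304 and 191 FPKM in M82 and 376, 223, 226 and 283 FPKM in n3122. GGDR made up 29.6% of that sum in M82 at 35 DPA and 10.1% at 54 DPA, whereas VTE3(2) held between 31.0% and 36.3% in all groups.

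**Figure D1:**
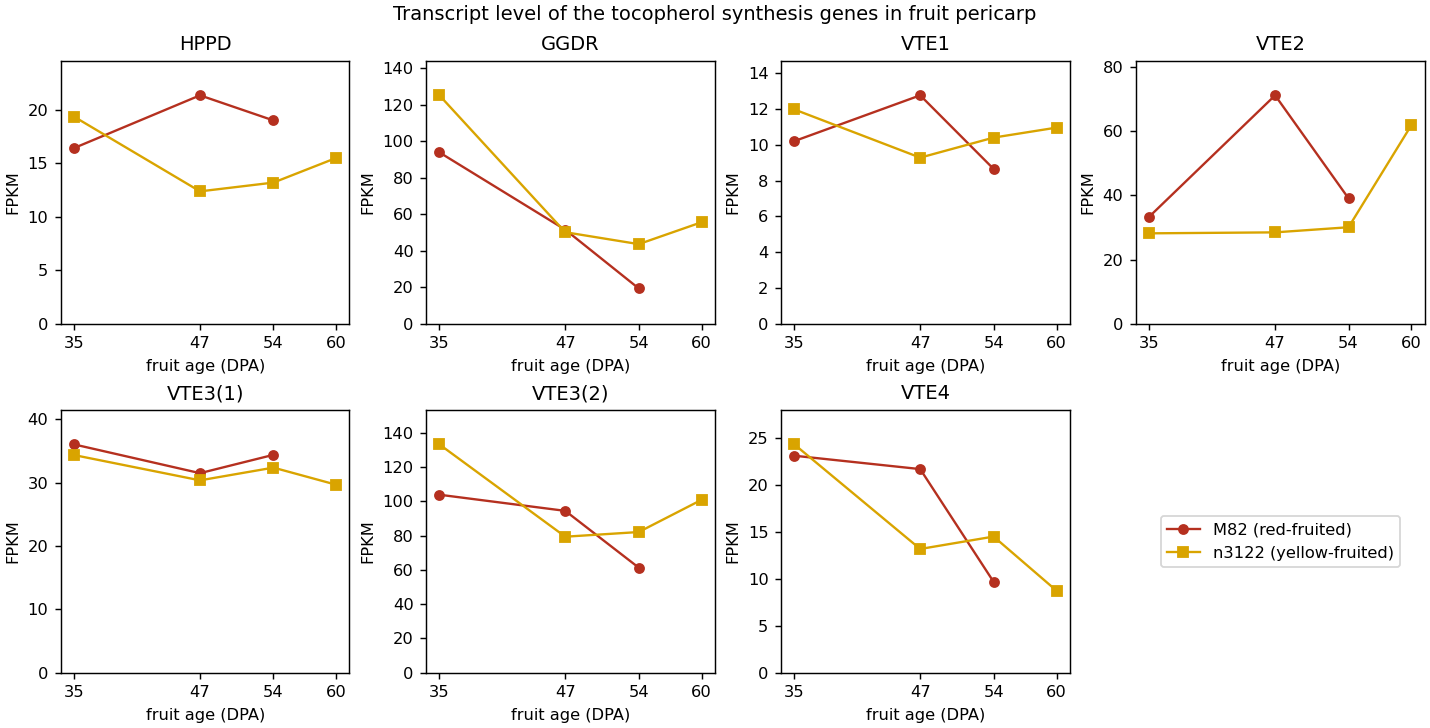
Level of each of the 7 genes in FPKM (vertical axis, from 0, a scale of its own per panel) against fruit age in DPA; each point is the authors' single value for a group of 2 libraries, with no error available, circles M82 and squares n3122. VTE2 stood at 71.3 FPKM in M82 at 47 DPA and at 62.0 FPKM in n3122 at 60 DPA, GGDR was lowest in M82 at 54 DPA at 19.3 FPKM, and VTE3(1) stayed between 29.7 and 36.0 FPKM.

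The deposited tables compare the genotypes at 35, 47 and 54 DPA, and the last one sets n3122 at 60 DPA against M82 at 47 DPA, here called the unequal-age comparison. It uses the same M82 libraries as the comparison at 47 DPA, and genotype and age cannot be told apart in it. A gene was called where its q-value, the authors' adjusted p, was at or under 0.05. All 7 genes were tested in each table, and 4 of the 28 member tests were called, each on a different gene. VTE2 and HPPD were lower in n3122 at 47 DPA, GGDR was higher in n3122 at 54 DPA, and VTE4 was lower in n3122 in the unequal-age comparison. VTE1, VTE3(1) and VTE3(2) were called in none of the 4 tables.

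These numbers were set against all genes tested. At 35 DPA none of the 7 was called by the authors' q-values, where 3.24% of 18541 genes were (1.91% higher in n3122 and 1.33% lower). GGDR alone had an unadjusted p under 0.05 there, as did 10.8% of all tested genes. At 47 and at 54 DPA 3 of the 7 had such a p, beside 33.8% and 38.6% of tested genes. In the unequal-age comparison 1 of the 7 had, beside 27.4%. At 47 DPA 2 of 7 were called, both lower, beside 23.5% of 18751 genes (13.7% higher, 9.81% lower). At 54 DPA 1 of 7 was called, as higher, beside 29.7% of 18796 genes (18.1% higher, 11.5% lower). In the unequal-age comparison 1 of 7 was called, as lower, beside 15% of 18823 genes (7.93% higher, 7.07% lower). A single gene is 14.3% of the 7, so the members' share in either table with a single call, and the 2 of 7 at 47 DPA, are near or under the share over all genes. The median log2 fold change of the 7, as log2((n3122 + 1) / (M82 + 1)) of FPKM, was 0.21, -0.42, 0.24 and -0.14 in the 4 tables. Over all tested genes it was -0.01, 0.01, -0.02 and 0.02. Genotype differences written as n-fold below are plain FPKM ratios without the added 1, so they are slightly larger than these log2 values give.

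HPPD, at the head-group end, stood at 16.4, 21.3 and 19.0 FPKM in M82 and at 19.3, 12.4, 13.2 and 15.5 FPKM in n3122. M82 thus had its highest value at 47 DPA, the age at which n3122 had its lowest. In neither genotype can 47 and 54 DPA be ordered without a spread between libraries. At 47 DPA HPPD was 1.73-fold lower in n3122, with a log2 fold change of -0.74 and q = 0.0421 (the authors' deposited table), close to the threshold. The call was lost at a q-value threshold of 0.01 and when the log2 fold change also had to reach 1. At 54 DPA the log2 fold change was -0.50, with p = 0.0351 and q = 0.0982 by the authors' deposited table, so HPPD was not called. The authors' deposited tables give q = 0.934 at 35 DPA, where the log2 fold change was 0.22, and q = 0.413 in the unequal-age comparison, where it was -0.38.

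GGDR, which supplies the tail, had the widest range of the 7 genes, 6.48-fold from its lowest to its highest group. It stood at 93.8, 51.5 and 19.3 FPKM in M82 and at 125, 50.1, 43.6 and 55.6 FPKM in n3122. Both genotypes were highest at 35 DPA and nearly level with each other at 47 DPA. M82 was lower still at 54 DPA, while the 3 later n3122 groups stayed between 43.6 and 55.6 FPKM. At 54 DPA GGDR was 2.26-fold higher in n3122, with a log2 fold change of 1.13, and 17.6% of tested genes had a larger change. Its q of 0.000377 is the lowest in the authors' deposited table for that age. PSY1, ZISO, GGPS2, DXR and SGR1, among other genes, hold the same q there. By the authors' deposited tables GGDR was not called at 47 DPA, where the log2 fold change was -0.04 (q = 0.948). It was also not called in the unequal-age comparison, where the log2 fold change was 0.17 (q = 0.753). At 35 DPA GGDR had the largest log2 fold change of the 7 genes, 0.41, with p = 0.0286 and q = 0.340 by the authors' deposited table. The summed chloroplast genes were also lowest in M82 at 54 DPA, at 8.93 FPKM against 379 FPKM in n3122. At 47 DPA, where GGDR was nearly level, that sum was 122 FPKM in M82 and 592 FPKM in n3122. In n3122 at 47, 54 and 60 DPA it was 592, 379 and 233 FPKM, where GGDR was 50.1, 43.6 and 55.6 FPKM. The part of the chloroplast genes in the GGDR difference was not tested.

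VTE2, the committed step, stood at 33.4, 71.3 and 39.1 FPKM in M82 and at 28.2, 28.5, 30.1 and 62.0 FPKM in n3122. The n3122 values up to 54 DPA lay under all 3 M82 values, and the value at 60 DPA lay between those of M82 at 54 and 47 DPA. At 47 DPA VTE2 was 2.50-fold lower in n3122, with a log2 fold change of -1.29, and 13.7% of tested genes had a larger change. Its q of 0.000521 is the lowest in the authors' deposited table for that age. PSY1, ZISO, GGPS2, CMK and SGR1, among other genes, hold the same q there. The authors' deposited tables did not call VTE2 at 35 DPA (log2 fold change -0.24, q = 0.899) or at 54 DPA (-0.37, q = 0.220). Nor was it called in the unequal-age comparison (-0.14, q = 0.797).

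Within each genotype VTE2 had a step of about the same size, 2.13-fold from 35 to 47 DPA in M82 and 2.06-fold from 54 to 60 DPA in n3122. With the median of all genes set to 0 between tables, these steps were 1.14 and 1.10 on the log2 scale, and 18.1% and 6.64% of genes had a larger step in either direction. Over the 5 steps between neighbouring ages, 3 other values of the 35 reached 1 in size: GGDR from 47 to 54 DPA in M82 (-1.42) and from 35 to 47 DPA in n3122 (-1.18), and VTE4 from 47 to 54 DPA in M82 (-1.13). For these 3, in this order, 2.70%, 8.78% and 4.69% of genes had a larger step. Of all genes, 22.1% and 6.37% reached 1 in the M82 steps, youngest first. In the n3122 steps 11.6%, 1.40% and 7.97% did. From 47 to 54 DPA in n3122 all 7 genes stayed between -0.26 and 0.08, in a step where 1.40% of 17753 genes reached 1 in size. Ages come from tables scaled separately, with no values per library, so no step was tested. In each genotype VTE2 was highest in the group with the highest sum of ripening genes. These highest sums were 13985 FPKM in M82 and 2935 FPKM in n3122. Of the 4 ripening genes, EXP1 alone was higher in M82 at 54 DPA (1182 FPKM) than at 47 DPA (859 FPKM). The part of ripening stage in the VTE2 and HPPD differences was not tested.

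The 2 genes of the VTE3 methyltransferase differed in level and in how much they varied. VTE3(1) stood at 36.0, 31.5 and 34.4 FPKM in M82 and at 34.4, 30.4, 32.4 and 29.7 FPKM in n3122. Its highest group was 1.21-fold above its lowest, the narrowest range of the 7 genes, and its log2 fold change between genotypes lay between -0.08 and -0.03 in the 4 tables. VTE3(2) stood at 104, 94.4 and 61.3 FPKM in M82 and at 133, 79.3, 82.03 and 101 FPKM in n3122. It was highest at 35 DPA in both genotypes, and its lowest group was M82 at 54 DPA. Its log2 fold changes were 0.36, -0.25, 0.41 and 0.15, none called, with p-values of 0.0601 at 35 DPA and 0.0608 at 54 DPA in the authors' deposited tables. VTE3(2) was 2.88-, 2.996- and 1.78-fold above VTE3(1) in M82 and 3.87-, 2.61-, 2.53- and 3.40-fold above it in n3122, a ratio within a group that does not depend on the scaling of the tables.

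VTE1, the cyclase, was the least abundant gene in 6 of the 7 groups. It stood at 10.2, 12.8 and 8.65 FPKM in M82 and at 12.0, 9.29, 10.4 and 10.97 FPKM in n3122. The groups of both genotypes were interleaved over a 1.48-fold range, and its q-values lay between 0.312 and 0.965 in the authors' deposited tables.

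VTE4, the last methyltransferase, stood at 23.1, 21.7 and 9.67 FPKM in M82 and at 24.3, 13.2, 14.5 and 8.73 FPKM in n3122. The oldest group of each genotype held its lowest value, and n3122 at 60 DPA was the one group where VTE4 stood under VTE1. In the unequal-age comparison VTE4 was 2.38-fold lower in n3122, a log2 fold change of -1.16 (q = 0.00595 in the authors' deposited table). The comparisons at equal age had opposite signs without a call. In the authors' deposited tables VTE4 had p = 0.0186 and q = 0.0710 at 47 DPA, with a log2 fold change of -0.68, and p = 0.0330 and q = 0.0938 at 54 DPA, with 0.54. At 35 DPA its log2 fold change was 0.07 (q = 0.998 by the authors). The oldest group of each genotype was not compared with the other here.

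An error for these ratios can be approximated from the authors' p-values alone. Taking each p as that of a normally distributed log2 ratio gave an implied standard error between 0.19 and 0.36 for the 28 member values. For genes within the members' range of levels the median was 0.21, 0.30 and 0.24 at the 3 equal ages, youngest first, and 0.30 in the unequal-age comparison. The implied 95% interval of the log2 ratio, without a pseudocount, ran from -1.96 to -0.68 for VTE2 at 47 DPA and from 0.61 to 1.74 for GGDR at 54 DPA. Both rest on the smallest p-value the tables hold, so they are the widest intervals that p allows. For genes not called the intervals were also wide. At 47 DPA that of GGDR ran from -0.63 to 0.55 and that of VTE3(1) from -0.64 to 0.53, and in the unequal-age comparison that of VTE2 ran from -0.69 to 0.41. Differences within these bounds could not be told from 0 at this precision. Among tested genes of like level at 47 DPA, none of 1451 with an absolute log2 ratio between 0.5 and 0.75 was called by the authors, and 71.7% of 762 between 0.75 and 1 were.

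**Figure D2:**
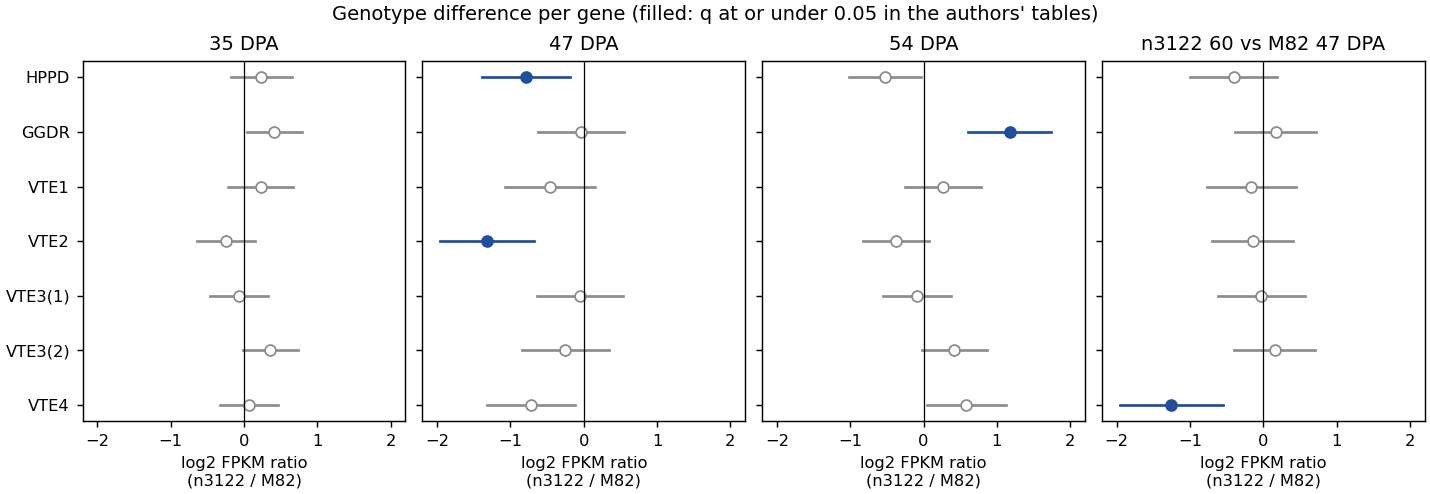
Log2 ratio of FPKM, n3122 over M82 (horizontal axis), for each of the 7 genes in the 4 deposited comparisons; lines are the 95% intervals implied by the authors' p-values under a normal approximation, and filled points have a q-value at or under 0.05. The filled points are VTE2 (-1.32) and HPPD (-0.79) at 47 DPA, GGDR (1.17) at 54 DPA and VTE4 (-1.25) in the unequal-age comparison (n3122 at 60 DPA, M82 at 47 DPA).

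On the deposited scale all 7 genes had a lower level in n3122 at 47 DPA, but GGDR and VTE3(1) came out higher, at 0.16 and 0.14 on the log2 scale, when each group was scaled to its total less its 20 most abundant genes. That scaling shifted log2 fold changes by 0.20 at 47 DPA and by 0.15 in the unequal-age comparison, and by under 0.1 at 35 and 54 DPA. The 4 called genes kept their direction under it, with log2 fold changes of -1.10 for VTE2, -0.55 for HPPD, 1.22 for GGDR and -1.03 for VTE4. In the unequal-age comparison it turned VTE2 from -0.14 to 0.00 and VTE3(1) from -0.03 to 0.12. After that scaling the median gene stood at 0.17 at 47 DPA and at 0.15 in the unequal-age comparison. The values that changed sign thus lay under the median gene. With the median of genes at 1 FPKM or more in both groups set to 0 instead, all 7 were lower at 47 DPA. GGDR was then at -0.01 and VTE3(1) at -0.02.

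Precursor supply and its use by carotenoid synthesis were described from lists of neighbouring pathway genes, kept where the RefSeq table supports the name at a like place. Of 8 such genes of the plastid isoprenoid (MEP) pathway and geranylgeranyl diphosphate synthesis, 7 were tested in each table. None was called at 35 DPA, where 3.24% of all tested genes were. At 47 DPA 3 were lower in n3122, beside 9.81% of all tested genes. At 54 DPA 3 were lower and 2 higher, beside 11.5% and 18.1%. In the unequal-age comparison 3 were lower, beside 7.07%. GGPS2, a geranylgeranyl diphosphate synthase gene, stood at 92.3 FPKM in M82 and 1.71 FPKM in n3122 at 47 DPA, a log2 fold change of -5.10. CMK and DXS1, which encode enzymes of the MEP pathway, had log2 fold changes of -1.39 and -0.94 there. At 54 DPA GGPS2, DXS1 and CMK were again lower (-3.42, -0.92 and -0.85), and DXR and MDS, of the same pathway, were higher (0.95 and 0.70). In the unequal-age comparison GGPS2, DXS1 and CMK were lower at -3.29, -1.31 and -1.07. Each of these calls is that of the authors' deposited tables.

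Of 6 genes at the entry to carotenoid synthesis, the authors' deposited tables called PDS, phytoene desaturase, as higher at 35 DPA (log2 fold change 0.61). They called 5, 4 and 2 genes as lower in the other 3 tables. Over all tested genes 1.91% were called higher at 35 DPA, and 9.81%, 11.5% and 7.07% lower in the other 3. The log2 fold changes of PSY1 were -0.34, -5.58, -4.55 and -2.67 in the 4 tables, and it was called in the last 3. ZISO, the zeta-carotene isomerase gene, had -5.78 at 47 DPA, -5.20 at 54 DPA and -4.71 in the unequal-age comparison. ZDS, a desaturase of the same route, had -1.20 at 47 DPA and -0.80 at 54 DPA. Of 11 listed genes of phytol and chlorophyll metabolism only SGR1, which acts in chlorophyll breakdown, had a supported name. By the authors' calls SGR1 was higher in n3122 at 35 DPA (0.71) and lower in the other 3 tables (-1.87, -1.27 and -1.11). None of 4 listed genes of tyrosine supply had a supported name, so they are not described.

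Ratios within a group set the tocopherol genes beside PSY1 without any scaling between tables. PSY1 over GGDR was 1.52, 83.0 and 157 in M82 and 0.901, 1.76, 2.95 and 11.6 in n3122. The ratio was above 1 in M82 and under 1 in n3122 at 35 DPA, where the authors called neither PSY1 nor GGDR. At 47 and 54 DPA the ratio of M82 was above every n3122 value. PSY1 over VTE2 was 4.28, 59.9 and 77.6 in M82 and 4.001, 3.09, 4.28 and 10.4 in n3122. GGDR over VTE2 was 2.81, 0.722 and 0.494 in M82 and 4.44, 1.76, 1.45 and 0.897 in n3122. GGDR was thus the more abundant of the pair at 35 DPA in either genotype, and the less abundant in M82 at 47 and 54 DPA and in n3122 at 60 DPA. HPPD over VTE2 was 0.492, 0.299 and 0.486 in M82 and 0.686, 0.434, 0.438 and 0.250 in n3122, lowest in each genotype in the group where VTE2 was highest.

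**Figure D3:**
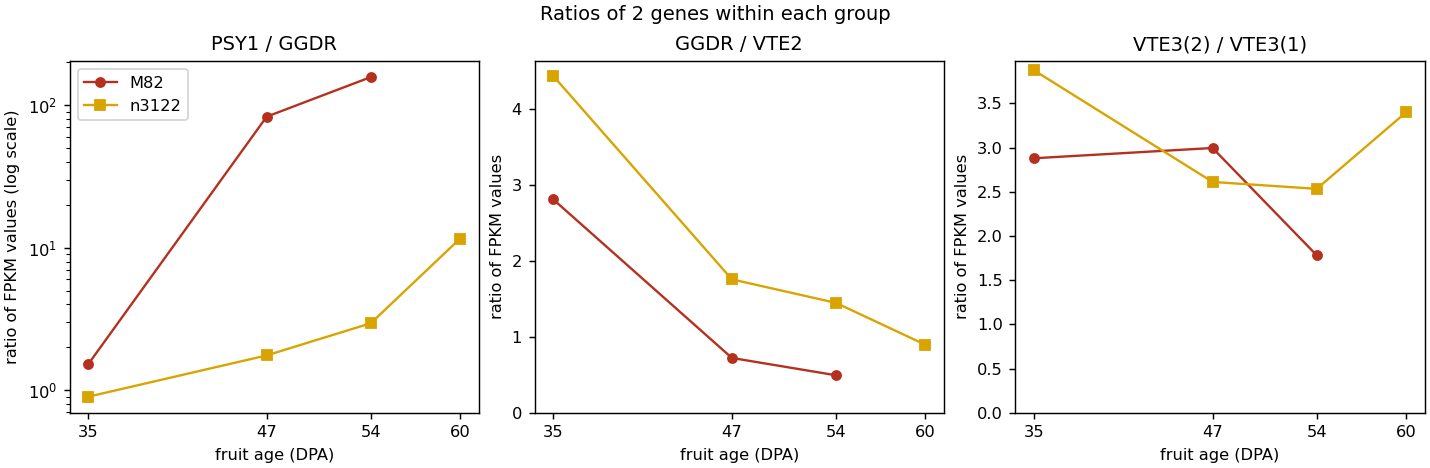
Ratio of the FPKM values of 2 genes in the same group (vertical axis, log scale for PSY1 over GGDR, from 0 for GGDR over VTE2 and VTE3(2) over VTE3(1)) against fruit age in DPA; each point is 1 group, circles M82 and squares n3122, with no error available. GGDR over VTE2 was lower in M82 than in n3122 at each shared age, from 2.81 against 4.44 at 35 DPA to 0.494 against 1.45 at 54 DPA, and PSY1 over GGDR came to 157 in M82 at 54 DPA and to 11.6 in n3122 at 60 DPA.

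Likeness of profiles was measured as the root mean square difference over the 7 groups between log2(FPKM + 1) values, each gene less its own mean. Of the genes with a supported name, HDR, which encodes the last enzyme of the MEP pathway, was the nearest to VTE3(2), with a difference of 0.08, and 2 of 18381 genes at a mean of 1 FPKM or more were nearer still. HDR stood at 331, 324 and 235 FPKM in M82 and at 434, 269, 271 and 340.5 FPKM in n3122, highest and lowest in the same groups as VTE3(2). PDS was the nearest to VTE2 (0.30), with 140 genes nearer, and both had their highest values in M82 at 47 DPA and, within n3122, at 60 DPA. ZEP, the zeaxanthin epoxidase gene, was the nearest to GGDR (0.35), with 251 genes nearer, and both were highest in n3122 at 35 DPA and lowest in M82 at 54 DPA.

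HDS, another MEP pathway gene, was the nearest to VTE1 (0.16) and to VTE4 (0.31), with 500 and 367 genes nearer. ZDS was the nearest to HPPD (0.23), with 2464 genes nearer. GGPS1, under 1 FPKM in every group, was the nearest to VTE3(1) (0.17), with 3233 nearer, but with a pseudocount of 0.1 FPKM it was CER6 (0.27), with 6612 nearer. For HPPD, VTE1 and VTE3(1) the difference was close to or above the gene's own standard deviation over the groups (0.26, 0.17 and 0.09). These profiles were thus about as far from their nearest named gene as from a flat line, or farther. With 7 group values, these are descriptions without a test.

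**Figure D4:**
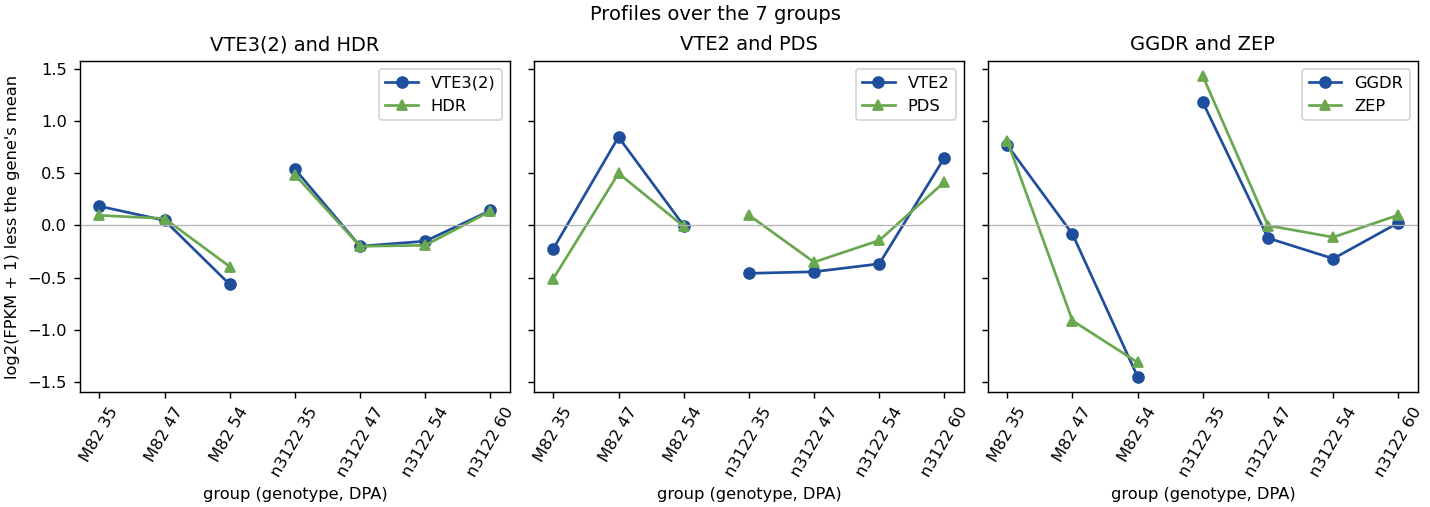
Profiles of 3 tocopherol genes (circles) and the named gene nearest to each (triangles), as log2(FPKM + 1) less the gene's own mean (vertical axis) in the 7 groups (horizontal axis, genotype and age in DPA); each point is a single group value. VTE3(2) and HDR lie nearly on each other, with a root mean square difference of 0.08, against 0.30 for VTE2 and PDS and 0.35 for GGDR and ZEP.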

How the data were processed

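The submitters' processing notes list CASAVA, TopHat2 (version 2.0) and Cufflinks. Genome build, annotation and the authors' test: not given in the sources used here. Per the file headers, each of the 4 deposited tables gives an FPKM per gene and group, a p-value, a q-value and a test statistic (a score). The q-values matched a Benjamini-Hochberg adjustment over all genes tested in the table. The score had the sign opposite to the FPKM ratio for all 18624 genes compared in the table of n3122 at 60 DPA, so directions come from the FPKM columns. In that table M82 at 47 DPA was 0.960 times its value in the 47 DPA table, so tables were taken as scaled separately, and levels of that group come from the 47 DPA table. Version suffixes on 51 identifiers were removed.

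With no values per library, genes were not tested anew: calls are the authors'. Fold changes (log2) used a pseudocount of 1 FPKM, which understates changes of low genes. Steps between ages were set against the median of genes at 1 FPKM or more in both groups. Implied errors, and the ratio of GGDR to VTE2, were added after the values were seen. The code for the adjustment and the implied errors was run on data simulated with normal errors. That run checks the arithmetic alone and cannot show whether the authors' p-values follow a normal log2 ratio. Names were checked in RefSeq (SLM_r2.1) for the same chromosome and a relative place within 5%. Of 50 listed genes other than the members 31 were supported, and the rest are not named. The identifiers first listed for CAB7 and CAB8 were exchanged after this check.

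The members and lists were chosen with earlier results of these data known. All 7 members were named whatever their values, as were PSY1 and EIN2, with the 3 called genes of largest change per neighbour list and the nearest profile per member. CMK and MDS at 54 DPA were named after their values were seen. Alternatives were other thresholds, filters, pseudocounts and scalings. Python 3.11.15, pandas 2.3.3, numpy 2.4.6 and scipy 1.17.1 were used.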

Additional observations from a re-analysis of the deposited data

How the results depend on the processing

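Adjusting the authors' p-values again over genes that reach 1 FPKM in both groups, or 10 FPKM in either, left all 28 member calls on the same side of the threshold. At a q-value of 0.01, and likewise with a minimum log2 fold change of 1, 1 member in place of 2 was called at 47 DPA, since HPPD dropped out. The number of pathway neighbours called at 35 DPA went from 2 to 0 under either rule, and at 54 DPA from 10 to 4 with the minimum fold. Pseudocounts of 0.1 and 10 FPKM changed no sign; with 10 FPKM the log2 fold change of VTE4 for n3122 at 60 DPA moved to -0.72, by construction, since its level is low. Scaling to the total less the 20 most abundant genes changed 2 signs at 47 DPA and 2 for n3122 at 60 DPA, none of a called gene. Setting the median of genes at 1 FPKM or more in both groups to 0 changed no sign. The 5 age steps of at least 2-fold among 35 kept their side under all 3 alternatives (2 other scalings, and M82 at 47 DPA from its other table), and with a pseudocount of 0.1 the nearest named profile was the same for 6 of the 7 genes and passed from GGPS1 to CER6 for VTE3(1). No paired analysis was possible because the tables carry no values per library, and leaving out replicates was not run for the same reason. Without counts, the depth that limits these values is unknown.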
